A study of Rattus norvegicus with 12 samples.

Results

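Transporters that carry phosphate and magnesium were examined in the duodenal mucosa of rats that swam and of rats that stayed sedentary. The group was chosen by name and held 9 genes. These are the phosphate carriers Slc34a1, Slc34a2, Slc20a1 and Slc20a2, the magnesium channel-kinases Trpm6 and Trpm7, the magnesium transporters Cnnm2 and Cnnm4, and the magnesium carrier Slc41a1. Of the 9, 5 have a probe named in the platform annotation, with 6 of the 22523 probes between them, and the brightest probe stood for each gene. Trpm6, Trpm7, Cnnm2 and Cnnm4 were not analysed here. The magnesium side therefore rests on Slc41a1 and on a wider list of magnesium genes.

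Dietary phosphate crosses the brush border of the enterocyte partly through sodium-coupled carriers, which use the inward sodium gradient, and partly between cells. The SLC34 family takes up divalent phosphate, with Slc34a2 (NaPi-IIb) as the brush border carrier of the small intestine and Slc34a1 (NaPi-IIa) as the carrier of the kidney's proximal tubule. The SLC20 family, PiT-1 (Slc20a1) and PiT-2 (Slc20a2), is found in most cell types and prefers monovalent phosphate. Magnesium enters intestinal cells through TRPM6 and TRPM7 channels and leaves them across the basolateral membrane, where CNNM4 acts as a sodium-dependent exporter, while Slc41a1 is a magnesium carrier of the plasma membrane.

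The arrays came from female Sprague-Dawley rats, an outbred strain, aged 9 weeks, 6 in the swimming group and 6 in the control group. Swimming rats were trained for 1 week up to 1 hour of swimming per day without a pause, and the swimming programme ran on 5 days per week over 2 weeks. Control rats spent the 2 weeks in the pool without exercise, so both groups were in water of 30 to 32 °C. RNA came from epithelium scraped off a 10 cm piece of duodenum, a mixed tissue in which fewer cells of a type and less RNA per cell cannot be told apart. Each sample was hybridised to 1 single-colour Illumina bead array, and values below are normalized log2 intensities on which the median probe averaged 6.36. Intensities of different probes cannot be set against each other as amounts of RNA.

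Several arrays stood apart or closely matched another. The brush border gene Vil1 was bright in all arrays, at 13.54 in swimming 5 and 14.32 to 14.74 in the other 11. Of 12 measured enterocyte markers, however, 4 lay more than 1 log2 below every other array in swimming 5. The mean of that list was 12.11 in swimming 5, against 13.21 to 13.60 in the others. The array labelled swimming 5 carried little of the proximal small intestine, as 11 of 16 measured segment markers lay more than 1 log2 below every other array. In it the duodenal transcription factor gene Gata4 read 5.69, against 10.12 to 10.73 in the others. The colonic carbonic anhydrase gene Car1 read 14.93 in it, against 6.70 to 8.82. Of 14 measured large intestine markers, 6 lay more than 1 log2 above every other array in swimming 5. The arrays formed 3 nearly identical pairs, swimming 4 with swimming 6, control 4 with control 6, and swimming 3 with control 3. Pairs within a group were averaged for means ± SD (n = 5), while the fitted differences used all 12 arrays. The third pair puts almost the same profile into both groups.

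The swimming and control rats did not differ past the threshold in any of the 5 measured transporters. limma called 0 of 22523 probes at an adjusted p under 0.05 (0%), and the 5 genes had adjusted p values between 0.911 and 0.995. Of the 5, 4 read higher and 1 lower in swimming rats, with a median difference of 0.061, against -0.0015 over all probes. These figures say little about the group, since 4 of the 5 differences were smaller than 0.2 and only 1 gene, Slc20a1, had an unadjusted p under 0.05 in the same fit (0.0406). Over all probes, 2.07% reached an unadjusted p under 0.05 with the swimming rats higher.

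**Figure D1:**
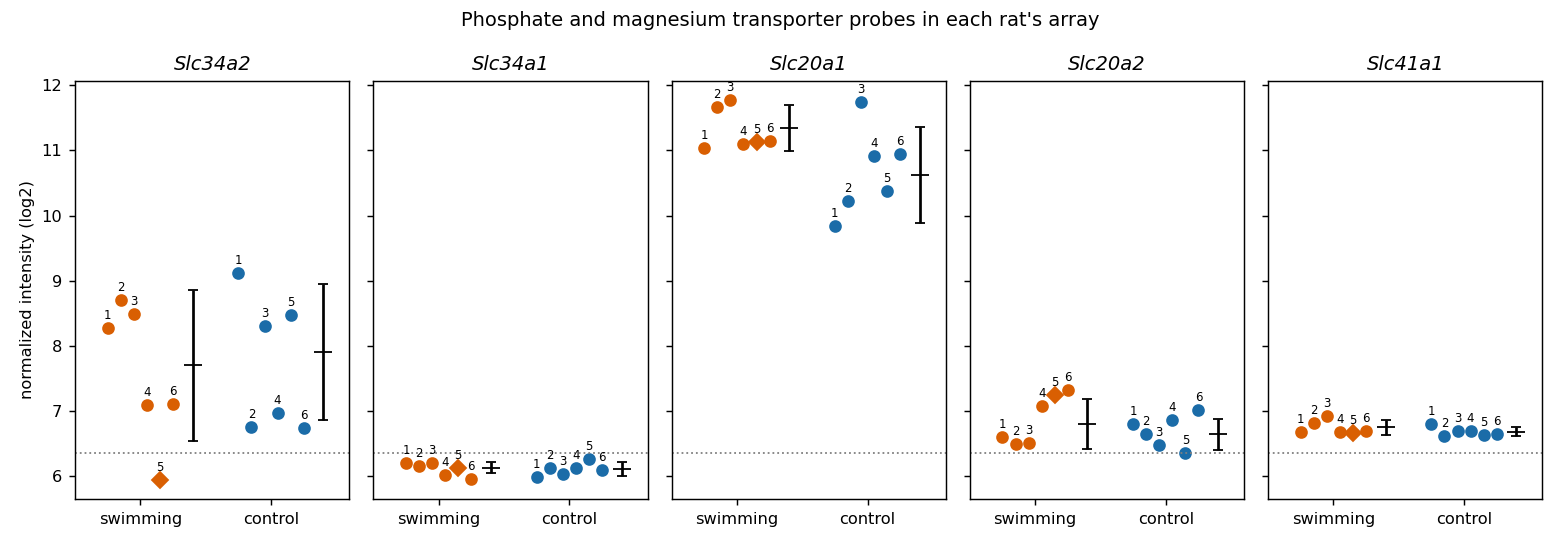
Normalized log2 intensity of the 5 measured transporters in each array (points, numbered by replicate; the diamond is the array labelled swimming 5), with mean ± SD over 5 samples a group (black bars) and the median probe of the array set (dotted line at 6.36). Slc34a2 runs from 5.95 to 9.13 with both groups spread over most of that range, Slc20a1 lies at or above 11.04 in every swimming array and at or below 10.94 in 5 of 6 control arrays, and the other 3 stay within 1 log2.

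Slc34a2, the brush border phosphate carrier, varied more between rats than most genes and did so in both groups. It read 5.95 at the lowest, 7.69 at the median and 8.70 at the highest in swimming rats, against 6.74, 7.64 and 9.13 in control rats. The groups overlapped over most of their range. Their means were 7.70 ± 1.16 in swimming and 7.91 ± 1.05 in control rats (SD, n = 5 each). The fitted difference was -0.13 (SE 0.54, 95% interval -1.31 to 1.05, limma adjusted p = 0.982), and the exact permutation test over the 12 arrays, two-sided, gave p = 0.820. The interval runs from a level 0.403 times that of control rats to one 2.08 times as high. Differences within that span are not excluded by these arrays.

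Leaving aside swimming 5, the Slc34a2 values fell apart into a lower and an upper set with a gap of 1.18 log2 between them. The lower set held 5 arrays, between 6.74 and 7.11, and the upper set 6 arrays, between 8.28 and 9.13. Swimming 4 and 6 and control 2, 4 and 6 were low, and swimming 1, 2 and 3 and control 1, 3 and 5 were high. Because the nearly identical arrays fall together, the low set stands for 3 distinct profiles and the high set for 5. On the deposited raw scale the probe read between 86.6 and 719.9 in these 11 arrays. Across the 8 distinct profiles the SD was 0.91, against a median of 0.21 over the 11261 probes brighter than the median probe, and 0.781% of those probes had a larger SD.

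In swimming 5 the Slc34a2 probe lay at 5.95, below every other array and below the median probe, with a deposited raw intensity of 57.1. The nearest other array read 6.74. The difference between the groups turned on this array and on single controls. Without swimming 5 it was 0.20, and without control 1, the rat with the highest level, it was 0.15, while it was 0.021 without control 5. No adjusted p fell below 0.90 in any of these fits. The part that the tissue of swimming 5 had in the pooled difference was not tested.

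The promoters of the SLC34 pair are shown, as no promoter entry was found for the other measured members. Slc34a2 was among the most variable genes here, while its kidney relative Slc34a1 was dim throughout. Each sequence runs 5′ to 3′ on the gene's strand over the 250 bases before and the 50 bases after the annotated start, from RefSeq on build GRCr8, and capitals mark the TATA motif that was found.

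Slc34a2, chr14:62143023-62143322, minus strand: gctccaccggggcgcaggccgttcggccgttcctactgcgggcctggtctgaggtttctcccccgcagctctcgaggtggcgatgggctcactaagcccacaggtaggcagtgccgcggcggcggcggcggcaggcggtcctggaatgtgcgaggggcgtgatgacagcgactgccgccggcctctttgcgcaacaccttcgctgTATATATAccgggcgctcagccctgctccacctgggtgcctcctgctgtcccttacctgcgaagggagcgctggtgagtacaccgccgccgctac

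Slc34a1, chr17:9238934-9239233, minus strand: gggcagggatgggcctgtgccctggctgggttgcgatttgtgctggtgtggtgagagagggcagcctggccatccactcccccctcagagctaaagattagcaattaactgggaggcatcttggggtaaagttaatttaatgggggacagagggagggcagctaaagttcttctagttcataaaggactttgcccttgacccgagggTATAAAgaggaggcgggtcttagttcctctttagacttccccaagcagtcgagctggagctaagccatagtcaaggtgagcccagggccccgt

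The Slc34a2 window holds TATATA at 2 overlapping positions, the first starting 45 bases before the start, a motif present in 6.15% of 33469 promoters of that length. The Slc34a1 window holds TATAAA starting 43 bases before the start, present in 14.2% of promoters. Motifs were searched on both strands. AGATAA, a motif of GATA factors, is in neither window and in 11.6% of all promoters. TTTATG, a motif of the intestinal factor CDX2, is in the Slc34a1 window (12.7% of all promoters), as is GTTAAT, an HNF1 half-site, at 2 positions (7.45%), and neither is in the Slc34a2 window. These matches describe letters in the window.

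Slc34a1, the kidney carrier, gave a signal close to the bottom of the scale in every rat. It read 5.96, 6.14 and 6.21 at the lowest, median and highest in swimming rats, against 5.99, 6.11 and 6.27 in control rats. All of these lie below the median probe and within 0.31 log2 of each other, and the groups overlapped fully. The fitted difference was 0.0027 (SE 0.062, limma adjusted p = 0.995). In the authors' processed table the same probe lay between -8.54 and 9.19 intensity units, around 0. A difference between probes this dim understates any change in RNA.

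Slc20a1, the PiT-1 carrier, read higher in swimming rats without passing the test. Its values were 11.04, 11.13 and 11.77 at the lowest, median and highest in swimming rats, against 9.84, 10.65 and 11.75 in control rats. All 6 swimming arrays lay above the control mean, and the groups overlapped through 1 array, control 3. The means were 11.34 ± 0.35 in swimming and 10.62 ± 0.74 in control rats (SD, n = 5 each). The fitted difference was 0.63 (SE 0.28, 95% interval 0.032 to 1.23), a fold of 1.55 (1.02 to 2.35), with adjusted p = 0.911 from limma. The exact permutation test over the 12 arrays, two-sided and unadjusted over the 5 genes tested, gave p = 0.0476. Both this p and the limma interval count nearly identical arrays as separate rats.

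The control array that overlapped the swimming rats is the one nearly identical to swimming 3. Slc20a1 read 11.77 in swimming 3 and 11.75 in control 3, and the other 5 controls lay between 9.84 and 10.94. Leaving out either array of that pair moved the fitted difference in opposite directions, to 0.54 without swimming 3 (SE 0.29, limma adjusted p = 0.792) and to 0.85 without control 3 (SE 0.22, limma adjusted p = 0.881). Averaging each within-group pair gave 0.72 (exact permutation p = 0.0635, 5 against 5 samples). With swimming 5 also left out it was 0.77 (exact p = 0.0873, 4 against 5 samples). With both arrays of the pair across groups left out as well it was 0.93 (exact p = 0.0571, where the smallest p that 3 against 4 samples allow is 0.0286). In that last set, which lacks the only control that had overlapped, the groups did not overlap, as in 2.41% of all probes with the swimming samples higher. The adjusted p from limma stayed above 0.7 in all alternatives tried.

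**Figure D2:**
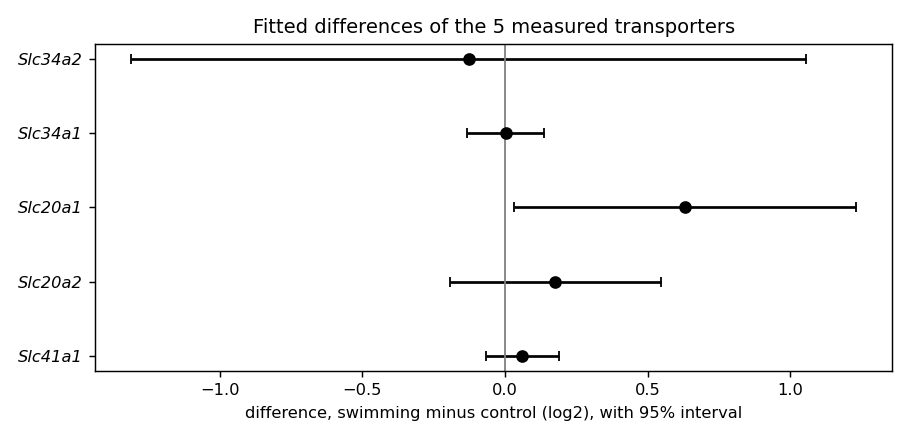
Fitted difference, swimming minus control, for each measured transporter on the log2 scale (points), with its 95% interval from limma over all 12 arrays (bars). The interval of Slc20a1, 0.032 to 1.23, lies above 0 before adjustment, with nearly identical arrays counted separately. That of Slc34a2 is the widest, -1.31 to 1.05, and those of the other 3 cross 0.

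Digestive enzyme genes of the exocrine pancreas, which borders the duodenum, moved with part of the Slc20a1 pattern. Of 18 listed pancreas markers 15 were measured, and their mean level ran from 6.46 to 10.20 in swimming arrays, against 6.45 to 9.24 in control arrays, with Prss2 and Ptf1a dimmer than the median probe. The 3 arrays with the highest pancreas level, swimming 2 and 3 and control 3, were also the 3 with the highest Slc20a1. Of these, swimming 3 and control 3 are nearly identical and count as 1 profile. Swimming 4, 5 and 6 had pancreas levels of 6.46 to 6.49, inside the 6.45 to 6.68 of control 1, 2, 4, 5 and 6. In those swimming arrays Slc20a1 read 11.10, 11.12 and 11.14, against 9.84 to 10.94 in those controls. Since swimming 4 and 6 are nearly identical and swimming 5 lacks proximal markers, the comparison rests on 1 distinct duodenal profile among the swimming rats. Markers of Brunner's glands, the mucous glands of the duodenal wall, averaged 7.56 to 8.07 in swimming arrays, against 6.81 to 7.77 in control arrays (4 of 6 measured, with Aqp5 dimmer than the median probe). The 7 measured red blood cell markers all read lower, 7.21 to 8.19 in swimming and 8.07 to 8.64 in control arrays, with Alas2 dim. All 5 measured endothelial markers read higher, averaging 7.36 to 7.73 in swimming and 6.98 to 7.59 in control arrays (Cdh5 and Tek dim), as did 11 of 13 of stroma and smooth muscle, averaging 7.48 to 8.29 in swimming and 7.02 to 8.28 in control arrays (Col6a2 dim). Over the 8 profiles without swimming 5, with all near-identical arrays averaged, the list means that ran closest to Slc20a1 were pancreas (r = 0.78), tuft cell (0.69) and proximal small intestine markers (0.64). Their part in the Slc20a1 difference was not tested.

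**Figure D3:**
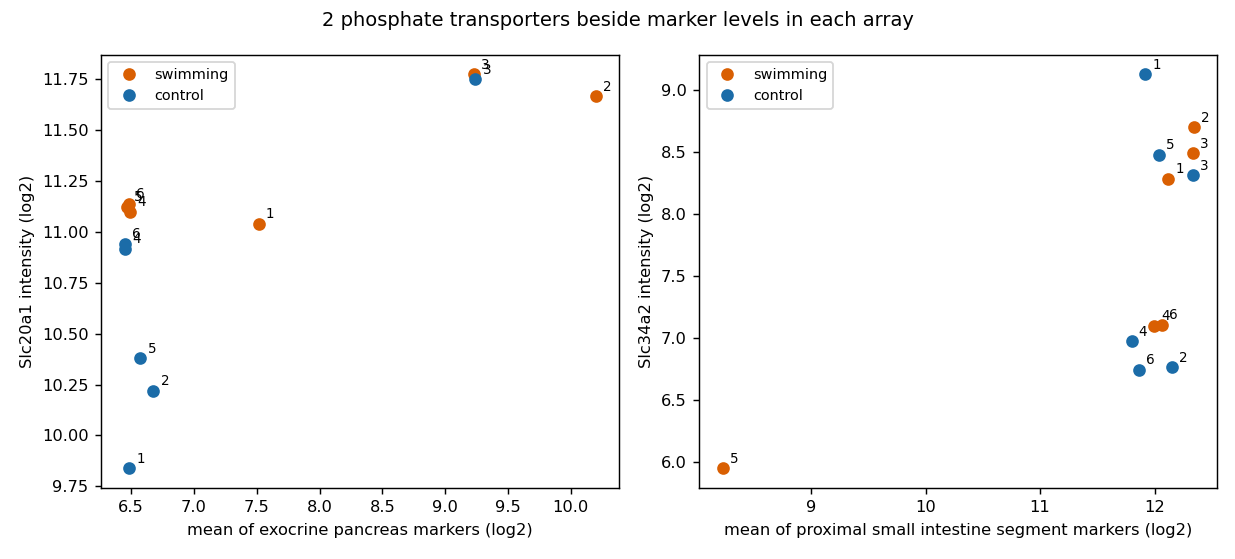
Left, Slc20a1 intensity against the mean of 15 exocrine pancreas markers in each array, and right, Slc34a2 intensity against the mean of 16 proximal small intestine markers, all on the log2 scale, with points numbered by replicate. Slc20a1 reaches its 3 highest values in the 3 arrays with the most pancreas signal, of which swimming 3 and control 3 are nearly identical. Swimming 4, 5 and 6 (4 and 6 nearly identical, 5 without proximal markers) lie above the controls of like pancreas level. Swimming 5 stands alone at the lower left for Slc34a2.

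Slc20a2, the PiT-2 carrier, was a weaker signal with a small difference. It read 6.49, 6.84 and 7.32 at the lowest, median and highest in swimming rats, against 6.36, 6.73 and 7.02 in control rats. The groups overlapped, and the 3 highest arrays were swimming 4, 5 and 6, followed by control 6 at 7.02. Swimming 4 and 6 are nearly identical and swimming 5 lacks proximal markers, so these are not 3 separate duodenal profiles. The means were 6.81 ± 0.38 in swimming and 6.65 ± 0.24 in control rats (SD, n = 5 each). The fitted difference was 0.18 (SE 0.17, limma adjusted p = 0.915; exact permutation p = 0.357), and it was 0.051 with pairs averaged and swimming 5 left out.

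Slc41a1, the magnesium carrier, was nearly constant across rats. Its brighter probe read 6.66, 6.69 and 6.93 at the lowest, median and highest in swimming rats, against 6.63, 6.67 and 6.81 in control rats. Both groups covered nearly the same narrow range. The means were 6.76 ± 0.11 in swimming and 6.69 ± 0.072 in control rats (SD, n = 5 each), with a fitted difference of 0.061 (SE 0.059, 95% interval -0.066 to 0.19, limma adjusted p = 0.915; exact permutation p = 0.240). Its second, dimmer probe differed by 0.061 as well (SE 0.081), and read at most 6.54 in swimming and 6.39 in control rats. Across the 8 distinct profiles the SD of the brighter probe was 0.081, and 95.4% of probes brighter than the median probe had a larger one. A probe this near the bottom of the scale compresses differences.

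The transporters did not vary together as a group. Over the 8 distinct profiles, which leave out swimming 5, the 10 pairwise Pearson correlations ran from -0.79 (Slc34a1 with Slc20a2, the first of them a dim probe) to 0.67 (Slc34a2 with Slc41a1). The brush border carrier Slc34a2 and PiT-1 gave 0.019. Among 8029 compared probes of named genes brighter than the median, the closest to Slc34a2 were Idh3a, a subunit of a citrate cycle enzyme (r = 0.96), and Sectm1b (0.94). The closest to Slc20a1 were Maob, monoamine oxidase B (0.92), and Acsl5, which activates fatty acids in enterocytes (0.91). Slc20a2 ran closest to Nup85, a nuclear pore protein (0.98), and Elp5 (0.97), and Slc41a1 to Eci3, an enoyl-CoA isomerase (0.96), and Acsl4 (0.93). These are the highest of many correlations over few profiles. Slc34a1 and Slc41a1 hardly varied over these profiles (SD 0.097 and 0.081). Correlations with either gene may therefore be mostly measurement noise, which was not tested. In swimming 5 the 2 neighbours of Slc20a1 lay far below their range elsewhere, at 6.11 for Maob and 9.74 for Acsl5, against 10.52 to 11.40 and 13.04 to 13.73 in the 8 profiles, while Slc20a1 itself read 11.12 there.

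Other genes of phosphate handling gave no call. Of 39 listed genes of phosphate transport, scaffolding and regulation, 33 were measured, 4 of them the carriers above, and 0 passed in either direction, as over all probes (0%). Of the 33, 14 read higher and 19 lower, with a median difference of -0.027, against -0.0015 over all probes. An unadjusted p under 0.05 was reached by 2 of the 33, Slc20a1 and Sfrp4, a secreted protein that lowers renal phosphate uptake, whose probe was dimmer than the median probe (difference 0.17, SE 0.061) and which was singled out after its values were seen. Among the other genes brighter than the median probe, the 4 with the smallest unadjusted p were Gabarap, Sgk1, Ppip5k2 and Slc37a4. Gabarap, an autophagy protein, had means of 13.20 ± 0.15 in swimming and 13.30 ± 0.16 in control rats (SD, n = 5 each), with a fitted difference of -0.17 (SE 0.092). Sgk1, a kinase induced by serum and glucocorticoids, read 12.72 to 13.59 in swimming and 12.32 to 13.41 in control rats, a difference of 0.31 (SE 0.20). Ppip5k2, which makes inositol pyrophosphates, differed by -0.41 (SE 0.27), and Slc37a4, the glucose-6-phosphate carrier of the endoplasmic reticulum, by -0.25 (SE 0.18). All 4 had a limma adjusted p of 0.911. Slc34a3, the third SLC34 carrier, and Xpr1, the phosphate exporter, were singled out after their values were seen, as the nearest relatives by function. Slc34a3 was dim throughout, at 6.16 to 6.30 in swimming and 6.06 to 6.29 in control rats, and Xpr1 read 6.46 to 6.52 in swimming and 6.42 to 6.72 in control rats, a difference of -0.045 (SE 0.055).

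Genes of magnesium handling likewise gave no call. Of 41 listed, 26 were measured, 1 of them Slc41a1, and 0 passed in either direction. Of the 26, 11 read higher and 15 lower, with a median difference of -0.029. The 1 gene at an unadjusted limma p under 0.05 was Kcnj16, a potassium channel subunit of the kidney tubule, singled out after its values were seen. It was dimmer than the median probe and read lower in swimming rats (difference -0.13, SE 0.056). Over all 22523 probes, 610 reached that level with swimming rats lower. Among genes brighter than the median probe, the 4 with the smallest unadjusted p, all above 0.05, read higher in swimming rats. Tusc3, a subunit of the oligosaccharyltransferase that is related to the magnesium transporter MagT1, had means of 8.86 ± 0.18 in swimming and 8.61 ± 0.38 in control rats (SD, n = 5 each), with a fitted difference of 0.30 (SE 0.15). Rack1, a ribosome-bound scaffold protein, differed by 0.43 (SE 0.21), from 12.08 to 13.13 in swimming and 12.00 to 13.14 in control rats. Nipal2, of the NIPA family of magnesium transporters, differed by 0.35 (SE 0.21), and Cnnm3, a relative of the CNNM members, by 0.087 (SE 0.047). In all 4 the limma adjusted p was 0.911 and the groups overlapped. Of the other relatives, singled out after their values were seen, Slc41a2 read 6.80 to 7.93 in swimming and 7.28 to 8.29 in control rats, a difference of -0.15 (SE 0.19), with swimming 5 the lowest, and Cnnm1 was dim throughout (5.86 to 6.17 in swimming and 5.96 to 6.27 in control rats).

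**Figure D4:**
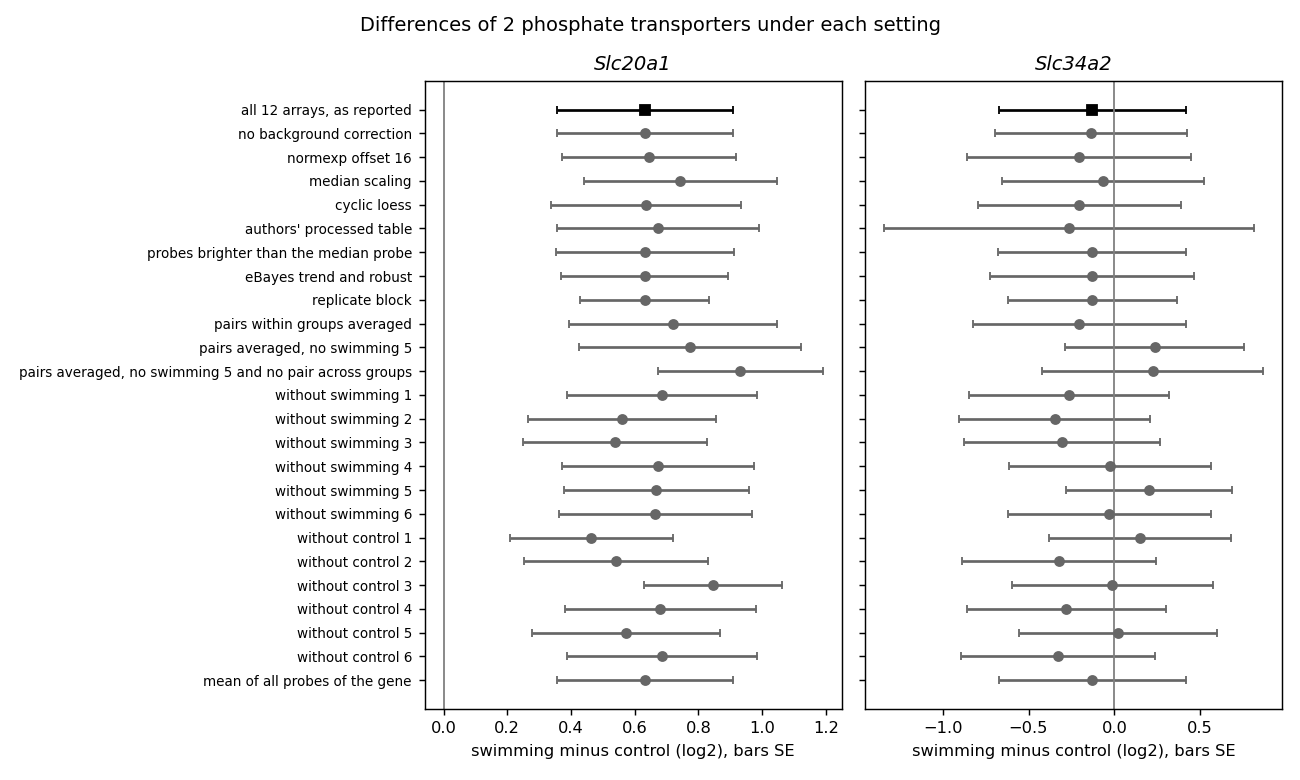
Difference, swimming minus control, of Slc20a1 (left) and Slc34a2 (right) on the log2 scale with its SE (bars), as reported over all 12 arrays (square) and under each of 24 other settings (circles). Slc20a1 stays between 0.46 and 0.93, and Slc34a2 lies on both sides of 0, between -0.35 and 0.24.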

How the data were processed

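Messenger RNA was measured in 12 arrays of rat duodenal mucosa, 6 swimming and 6 control, grouped by the sample titles. The deposited raw table holds the average signal intensity per probe, per the file headers, on a linear scale with array medians between 62.7 and 88.8 and no value below 0. The other deposited table gives the authors' processed intensities, with 26.2 to 26.3% of values below 0 and a median of 16.0 in every array, made by a method not given in the sources used here. Detection p-values were not used here. The raw values went through normexp background correction with an offset of 50, quantile normalization and a log2 transform, and all 22523 probes were fitted with limma 3.58.1 in R 4.3.3 (two-sided, Benjamini-Hochberg adjustment over all probes, calls at adjusted p under 0.05). The fit was tested on simulated data. The number of arrays limits the precision.

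Names came from the platform annotation, which gives 13793 probes 1 symbol, none several, and leaves 8730 unnamed here. Of the named probes, 13752 matched the GRCr8 gene table by Entrez identifier. Promoter entries were found for 2 of the 5 measured members. Members and lists were chosen with earlier results of these data known. Of each pathway list, the 4 genes named are those brighter than the median probe with the smallest p, and for each bright member the 2 most alike genes by Pearson correlation. Arrays were called nearly identical where the spread of their log2 differences was smaller over 4869 bright than over 5192 dim probes. Alternatives changed the background correction, normalization, probe filter, value table, empirical Bayes setting, replicate block, averaging of pairs and the arrays left out.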

Additional observations from a re-analysis of the deposited data

Results flagged for a closer look

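Of 28 sets of 6 arrays examined for the named genes (14 probes in each group), 3 held an array set apart from the other 5. Chance flags about 5% of sets of independent values. These sets share their arrays, hold nearly identical pairs and include swimming 5, so the count cannot be judged against that rate. Ppip5k2, a kinase of inositol pyrophosphates, read 10.34 in control 5, against at most 9.05 in the other control rats. Slc37a4, the glucose-6-phosphate carrier, read 10.38 in swimming 5, against at least 11.29 in the other swimming rats, and 11.21 in control 1, against at least 11.57 in the other control rats. None of the 5 measured transporters had such an array in either group.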

How the results depend on the processing

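limma called 0 probes in each of the 23 alternatives. The smallest adjusted p was 0.115 without control 3, 0.123 in the authors' processed table (values under 10 set to 10) and 0.209 without swimming 3, and the number of probes at an unadjusted p under 0.05 ran from 589 to 1663 over all probes and was 458 of the 11261 bright probes. The differences of Slc20a1, Slc20a2 and Slc41a1 were above 0 in all 24 alternatives each, at 0.46 to 0.93, 0.051 to 0.45 and 0.024 to 0.17. Slc20a1 had an unadjusted limma p under 0.05 in 15 of the 24, most of which counted nearly identical arrays as separate rats. With pairs within groups averaged its unadjusted limma p was 0.05203, and 0.05045 with swimming 5 also left out. It was 0.0072 without the pair across groups as well, a set that lacks the only overlapping control. Slc34a2 turned from -0.13 to 0.24 with pairs averaged and swimming 5 left out and to 0.22 without the pair across groups as well, and ran from -0.35 to 0.20 when single arrays were left out. Slc34a1 turned from 0.0027 to -0.0045 under median scaling and to -0.0077 in the smallest set of samples, and ran from -0.022 to 0.035 with single arrays left out. It has no value among bright probes, nor in the authors' table, where it lay under 10 on every array. With the replicate number as a block (a paired fit) Slc20a1 differed by 0.63 (SE 0.20, adjusted p = 0.864) and no call changed. The numbers name rats and are not said to pair them, so they were not taken as pairs. Same-numbered arrays deviated together in 3 of 6 numbers (correlation above 0.1). This cannot decide the pairing, as number 3 is the pair across groups, and numbers 4 and 6 are nearly identical within each group. Swimming 3, 4 and 6 correlated best with the control of their own number, and swimming 1, 2 and 5 did not. Signal near background limits Slc34a1, Slc41a1 and Slc20a2.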

Other observations

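The array labelled swimming 5 differed from the rest in other genes of phosphate and magnesium handling, which were picked out after its values were seen. Of 59 measured genes of the 2 lists, 4 lay more than 1 log2 outside the range of the other 11 arrays, against 791 of all 22523 probes (3.51%). Alpi, the brush border alkaline phosphatase, which frees phosphate from organic esters, read 5.997, against 14.67 to 15.03. Egf, a growth factor that stimulates magnesium uptake in the kidney, read 9.35, against 6.16 to 6.71. Galnt3, the glycosyltransferase that protects the phosphate hormone FGF23 from cleavage, read 12.22, against 9.54 to 10.10, and Pdzk1ip1 read 9.01, against 6.26 to 6.71. Nherf1, a scaffold protein that anchors phosphate carriers in the renal brush border, read 10.20, against 11.15 to 12.52. At 0.953 log2 outside, it fell short of the 1 log2 limit and is not among the 4. Slc20a1 at 11.12 and Slc41a1 at 6.66 lay inside the range of the other arrays.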
